A study of Mus musculus with 6 samples.

Results

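The serpins, a family of protease inhibitors, were described across 6 NT3 tumors. Their members were taken by name, as every entry of the gene count table whose symbol starts with Serpin, which gave 63 of 23358 entries. Of these, 44 were among the 16415 genes with enough reads to be tested, and the remaining 19 reached at most 48 counts in any tumor. NT3 is a form of NIK, the kinase that starts alternative NF-κB signaling, without the domain through which TRAF3 marks it for degradation. The transgene lies behind a stop cassette in the Rosa locus, so that it is expressed where Cre has removed the cassette, and all tumors carried it. In the Osx-Cre;NT3 line Cre follows the promoter of Sp7 (osterix), a gene of the osteoblast lineage, and was held off by doxycycline until weaning, with Cre parents of mixed C57Bl/6J and CD1 descent. In the FSP1-Cre;NT3 line Cre follows the S100a4 promoter, which is active in fibroblasts and also in myeloid cells, with Cre parents kept on FVB/n. From Osx-Cre;NT3 females came 3 tumors, numbers 13, 18 and 25, all from the trunk, with latencies of 150, 168 and 115 days. The FSP1-Cre;NT3 females gave perineal tumors 27 and 36, at 101 and 52 days, and trunk tumor 29, at 72 days. Each tumor carries its own number in the labels, and no treatment is listed beside the doxycycline given to the Osx-Cre;NT3 mice. Line, early doxycycline, strain background and latency cannot be told apart here, and since both perineal tumors were FSP1-Cre;NT3, site and line overlapped. The paper also gives a lower average RNA integrity score for the Osx-Cre;NT3 than for the FSP1-Cre;NT3 tumors. Tissue without the transgene was not analysed here.

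Serpins trap proteases. An exposed loop is offered as bait, and once the protease cuts it the inhibitor changes shape and holds the enzyme in a covalent complex, so each molecule works once. Clades are lettered by descent. Most clade A proteins are secreted, many of them by the liver, and the clade includes antitrypsin, antichymotrypsin and hormone carriers that inhibit nothing. Clade B proteins lack a classical signal peptide and act mostly inside cells, in keratinocytes and leukocytes above all. The small clades hold antithrombin (C), heparin cofactor II (D), protease nexin 1 (E), pigment epithelium-derived factor and antiplasmin (F), the C1 inhibitor of complement (G), the collagen chaperone HSP47 (H) and neuroserpin (I). Mice carry enlarged clusters of Serpina genes on chromosome 12 and of Serpinb genes on chromosomes 1 and 13. Neighbours in these clusters are near copies, so reads may have been divided unevenly among them, and their single values are less certain than those of the solitary genes. In the deposited positions Serpina3f lies wholly inside Serpina3g, with 6586 shared bases.

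Total counts lay between 51824408 and 75435102 in 5 tumors and at 163297772 in tumor 18, and serpin genes took from 0.134% to 0.230% of them. CPM are counts divided by the library size, with the libraries scaled to each other by TMM, and serve to compare tumors. RPKM are the authors' values, divided by gene length as well, and serve to compare genes. The tumors held RNA of marker genes for several cell types. Which cells expressed them cannot be told from bulk RNA. The 6 basal keratinocyte markers summed to between 5741 and 14652 CPM and the 8 fibroblast markers to between 5235 and 15178 CPM. Tumor 36 stood apart, with 4820 CPM for 8 simple epithelium markers and 2668 CPM for 7 smooth muscle and myoepithelium markers, against at most 1289 and 558 CPM in the other tumors. In such bulk samples fewer cells of a type and less RNA per cell cannot be told apart.

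Serpin RNA in these tumors was mostly of clades B and A. The summed RPKM of the 63 genes was 715 ± 132 (SD, n = 6), lowest in tumor 25 with 497 and highest in tumor 18 with 867. Clade B made up 40.4% ± 9.0 of it (SD, n = 6) and clade A 27.7% ± 3.6. Its share was 45.1%, 50.4% and 46.7% in Osx-Cre;NT3 tumors 13, 18 and 25, and 27.6%, 31.6% and 40.8% in FSP1-Cre;NT3 tumors 27, 29 and 36. No FSP1-Cre;NT3 tumor reached the lowest share of an Osx-Cre;NT3 tumor. The summed RPKM of clade B, however, overlapped between the lines, with 319, 437 and 232 against 190, 219 and 342 RPKM. Clade G, the single gene Serping1, made up 3.7%, 5.7% and 2.7% in the Osx-Cre;NT3 tumors and 12.2%, 10.9% and 14.0% in the FSP1-Cre;NT3 tumors. Clades H, F and E made up 10.8% ± 1.5, 9.1% ± 2.6 and 3.8% ± 1.2 (SD, n = 6), and clades C, D and I each at most 0.086% in any tumor.

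**Figure D1:**
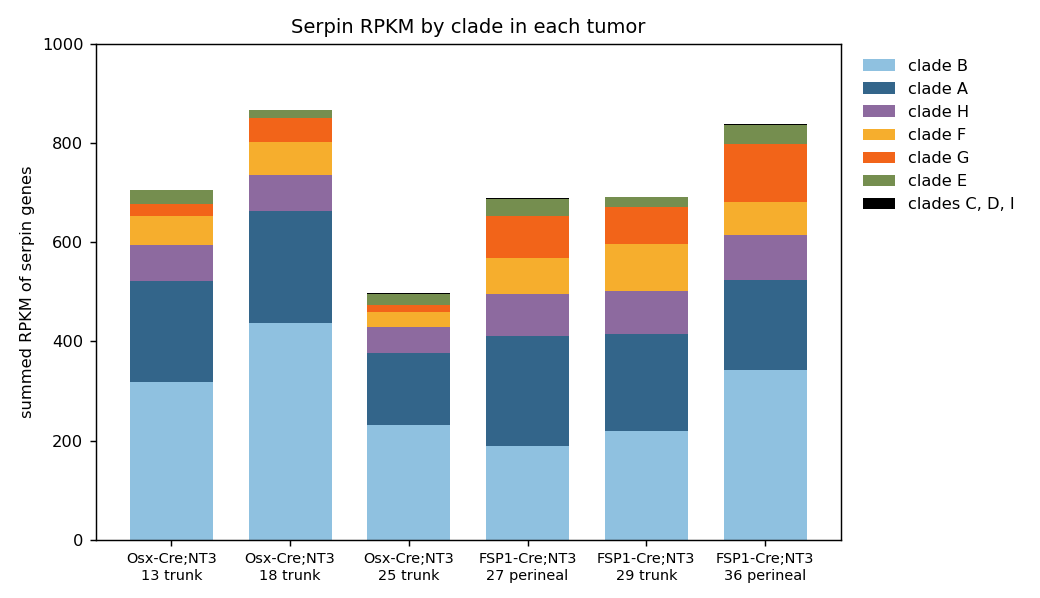
Summed RPKM of the serpin genes in each of the 6 tumors (vertical axis, RPKM from 0), with 1 bar per tumor split by clade. Clade B is the largest block in 5 tumors and falls below clade A in tumor 27, and the total runs from 497 RPKM in tumor 25 to 867 RPKM in tumor 18.

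A different gene led in most tumors. Serpina3g was first in tumors 13 and 25 with 107 and 66.0 RPKM, Serpinb6b in tumor 18 with 145, Serpinh1 in tumor 27 with 84.6, Serpinf1 in tumor 29 with 94.6 and Serpinb1a in tumor 36 with 127 RPKM. The first 5 genes together took between 54.5% and 61.5% of the serpin RPKM. By the mean over the 6 tumors the leading members were Serpina3g (78.5 RPKM ± 26.6), an inhibitor of cathepsins, Serpinh1 (76.6 ± 14.3), the collagen chaperone HSP47, and Serpinb6a (75.7 ± 28.4), an intracellular inhibitor of serine proteases (SD, n = 6). Next came Serpinf1 (64.8 ± 20.3), which codes for pigment epithelium-derived factor, Serpinb6b (61.6 ± 45.4), Serping1 (60.9 ± 38.9), the C1 inhibitor, and Serpinb1a (60.4 ± 32.9), an inhibitor of neutrophil elastase. The order among these 7 is not settled, because it changed from tumor to tumor. Of the 63 genes, 15 reached a mean of 10 RPKM, 36 stayed under 1, and 3 (Serpini2, Serpina1f and Serpinb9g) had 0 counts in every tumor, which allows up to 0.0579 CPM in the shallowest library.

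The serpin genes tested differed between tumors more than the genes tested as a whole, in a comparison not matched on level. The median coefficient of variation over the 6 tumors was 0.681 for the 44 members tested and 0.325 for all 16415 genes tested, with no matching on level. The highest tumor had at least 10 times the CPM of the lowest for 19 of the 44, against 11.0% of all genes tested. Tumor 36 was the highest for 24 of the 44, against 24.8% of all genes, and tumor 25 the lowest for 19, against 18.7%. These shares were not matched on level either, and Serpinb3d and Serpinb6d had 0 counts in tumor 25. Near copies within the clusters do not count as separate cases. Across the 44 members the log2 CPM of a pair of tumors correlated with Pearson's r between 0.712 for tumors 18 and 36 and 0.965 for tumors 25 and 27, a description over genes that share their libraries. Tumors 25 and 27, the pair most alike, differ in line and in site.

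**Figure D2:**
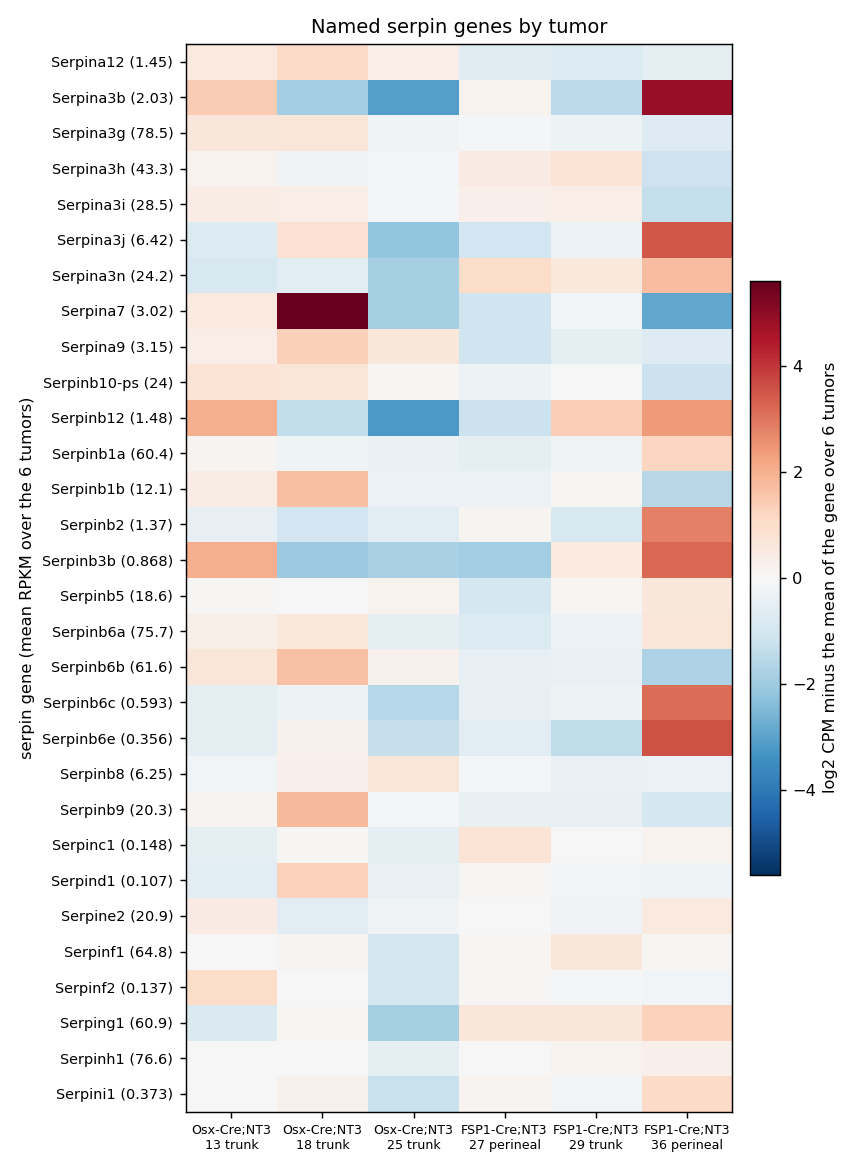
Level of 30 named serpin genes (rows, with their mean RPKM) in the 6 tumors (columns), as log2 CPM minus the mean of the gene over the 6 tumors (color). The strongest red squares are Serpina7 in tumor 18 and Serpina3b in tumor 36, while Serpinh1, Serpinf1 and Serpina3g stay pale.

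Whether serpin genes differed between the lines was asked of the whole table. In the quasi-likelihood test of edgeR, adjusted by Benjamini-Hochberg, 0 of the 16415 genes passed an adjusted p of 0.05, so that percent called was 0.0 and no serpin gene could be called changed. The smallest adjusted p was 0.359 over all genes and 0.412 over the members. At an unadjusted p under 0.05 there were 9 of 44 members, 2 higher and 7 lower in FSP1-Cre;NT3, against 10.8% of all genes (7.31% higher and 3.47% lower). DESeq2 called 4 of the 44, against 2.56% of all genes, and gave no adjusted p for 8 others. These were Serpina3n, the 1 higher in FSP1-Cre;NT3 (2.14% of all genes), and Serpina12, Serpina9 and Serpinb6b, the 3 lower (0.414%). Values of the tumors did not overlap between the lines for 7 of 44 members (15.9%), which was not above the 17.0% of all genes. Of the 7, 2 were higher (4.55%, against 9.03% of all genes) and 5 lower (11.4%, against 7.97%) in FSP1-Cre;NT3. Among them Serpina3n, Serping1, Serpina9, Serpinb6b and Serpinb10-ps did not overlap between the sites either. For these genes line and site cannot be told apart. The median log2 fold change of FSP1-Cre;NT3 over Osx-Cre;NT3 was 0.36 over the 44 members and 0.015 over all genes, with 27 of the 44 above 0.

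Serpina3n is a secreted, acute-phase inhibitor of the antichymotrypsin group that acts on granzyme B and elastase (mm10, chr12:104406708-104414329). It measured 23.9, 28.9 and 12.4 CPM in Osx-Cre;NT3 tumors 13, 18 and 25, and 90.4, 66.6 and 148 CPM in FSP1-Cre;NT3 tumors 27, 29 and 36. Every FSP1-Cre;NT3 tumor was above every Osx-Cre;NT3 tumor, trunk tumor 29 included. Both perineal tumors were also above every trunk tumor, with a log2 fold change of 1.85 between the sites in edgeR. With site as a covariate the log2 fold change between the lines was 1.62 in edgeR. Without the covariate the log2 fold change between the lines was 2.22 (SE 0.42), with an adjusted p of 0.412 in edgeR and of 0.000264 in DESeq2. DESeq2 called it without any 1 of the tumors as well, with adjusted p from 5.8e-05 to 0.00814.

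Serping1, the C1 inhibitor, which blocks the first proteases of complement and the contact system (chr2:84765360-84775429), followed the same order. Its level was 62.6, 119 and 30.0 CPM in the Osx-Cre;NT3 tumors and 173, 171 and 265 CPM in the FSP1-Cre;NT3 tumors. The log2 fold change was 1.52 (SE 0.49), with an adjusted p of 0.458 in edgeR and of 0.0846 in DESeq2, so neither tool called it. Without tumor 18, and without tumor 25, DESeq2 did call it, with adjusted p of 0.000363 and 0.0258. Those fits called 499 of 16717 and 3650 of 16820 genes. Without tumor 13 the adjusted p in DESeq2 rose to 0.408. In edgeR the log2 fold change without tumor 18 was 2.13. Of the 9 genes listed for complement and contact proteases 6 were tested. Their log2 fold change was above 0 for 6 of 6, against 51.1% of all genes tested, and none was called by either tool. Among them C1s1 had 39.3, 76.3 and 21.5 against 98.3, 63.6 and 164 CPM.

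Serpina12 and Serpina9 lie side by side on chromosome 12 (chr12:104028769-104044443 and chr12:103996620-104013652). Serpina12 is vaspin, a secreted inhibitor of kallikrein 7, and Serpina9, centerin, was named for germinal center B cells. Serpina12 had 8.99, 12.6 and 7.77 CPM in the Osx-Cre;NT3 tumors and 3.81, 3.51 and 4.16 CPM in the FSP1-Cre;NT3 tumors. Serpina9 had 7.45, 14.6 and 8.73 CPM against 2.61, 4.0 and 3.41 CPM. Both were low and their lines did not overlap. Their log2 fold changes were -1.36 (SE 0.31) and -1.62 (SE 0.38), with adjusted p of 0.432 for both in edgeR and of 0.00152 and 0.0039 in DESeq2. Serpina12 kept its DESeq2 call without any 1 of the tumors (adjusted p up to 0.0376), while Serpina9 lost it without tumor 27 (adjusted p = 0.0537).

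Serpinb6b and Serpinb9, neighbours on chromosome 13, and Serpinb10-ps on chromosome 1 had every FSP1-Cre;NT3 tumor below every Osx-Cre;NT3 tumor. Serpinb6b, an intracellular inhibitor of serine proteases, had 183, 355 and 133 CPM in the Osx-Cre;NT3 tumors and 82.5, 89.0 and 34.5 CPM in the FSP1-Cre;NT3 tumors. Its log2 fold change was -1.71 (SE 0.49), with an adjusted p of 0.458 in edgeR and of 0.0297 in DESeq2. The DESeq2 call was lost without tumor 13, 18, 27 or 36 (adjusted p from 0.0661 to 0.169). Serpinb9 protects cytotoxic lymphocytes and other cells from granzyme B, and had 78.3, 247 and 64.7 CPM against 53.0, 51.1 and 34.9 CPM, with a log2 fold change of -1.49 (SE 0.53) and an adjusted p of 0.117 in DESeq2. Without tumor 18 the log2 fold change of Serpinb9 was -0.63 in edgeR. Serpinb10-ps, the mouse counterpart of bomapin, which blood-forming cells express and which the annotation gives as a polymorphic pseudogene, had 166, 153 and 102 CPM against 78.9, 94.3 and 41.5 CPM. The adjusted p in DESeq2 was 0.168 at a log2 fold change of -0.97 (SE 0.35).

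The summed markers of mast cells, fibroblasts and endothelium separated the lines along with these values. The 8 mast cell markers summed to between 16.6 and 80.5 CPM in Osx-Cre;NT3 and between 297 and 373 CPM in FSP1-Cre;NT3 tumors, with 8 of 8 higher without overlap, against 9.03% of all genes, and Ms4a2 at 0 in at least 1 tumor. The 8 fibroblast markers summed to between 5235 and 6836 CPM and between 11729 and 15178 CPM, with 7 of 8 higher without overlap and none at 0. The 6 endothelial markers summed to between 125 and 324 CPM and between 329 and 457 CPM, with 2 of 6 higher without overlap and none at 0. Macrophage markers overlapped, with 1308 to 3035 CPM in Osx-Cre;NT3 and 1257 to 1561 CPM in FSP1-Cre;NT3 tumors, as did those of cytotoxic T and NK cells with 37.7 to 139 and 38.1 to 86.0 CPM. Their part in the serpin values was not tested.

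**Figure D3:**
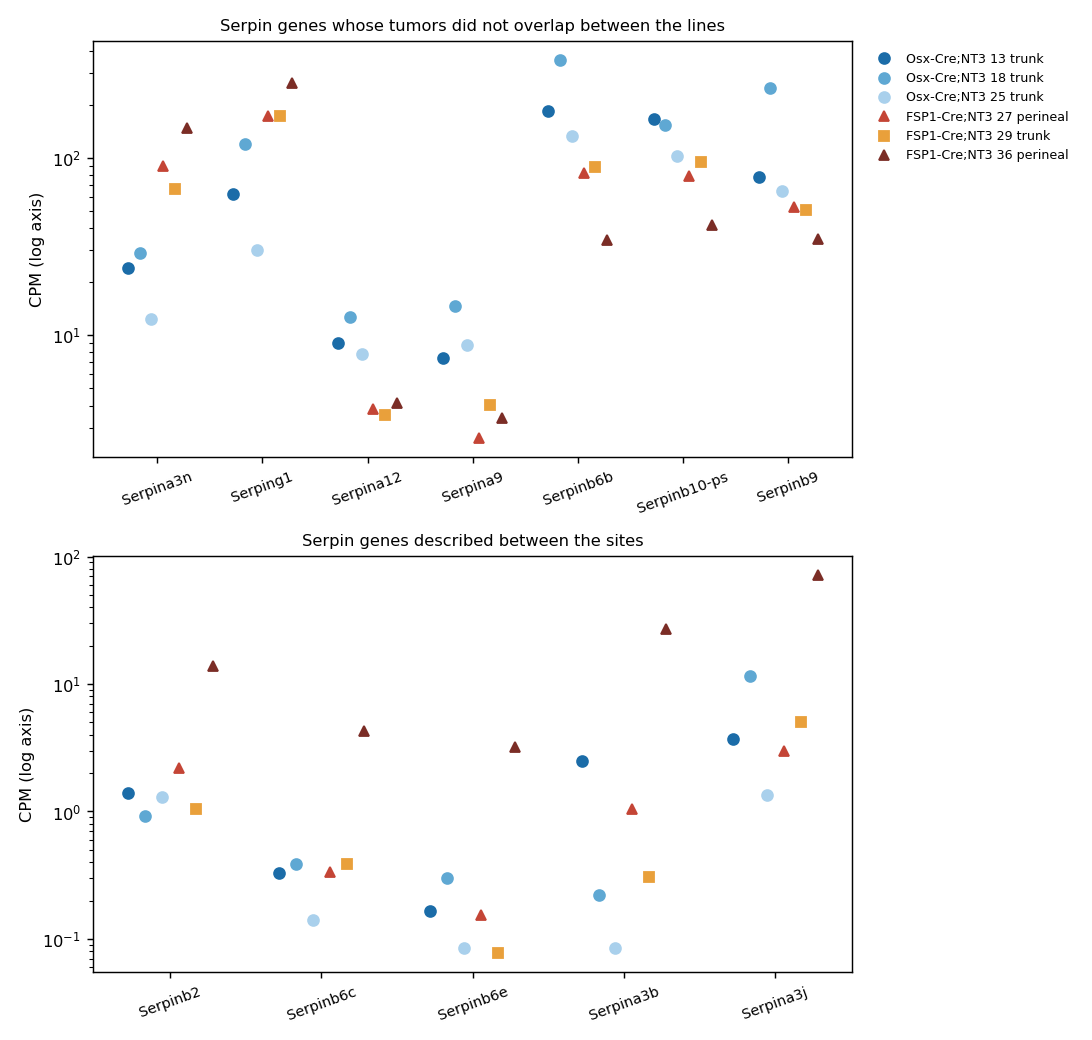
CPM (log axis) of serpin genes in the 6 tumors, with circles for Osx-Cre;NT3 trunk tumors, triangles for FSP1-Cre;NT3 perineal tumors and a square for the FSP1-Cre;NT3 trunk tumor. The upper panel shows the 7 genes picked for tumors that did not overlap between the lines, Serpina3n and Serping1 being higher in FSP1-Cre;NT3. In the lower panel Serpinb2 is highest in the 2 perineal tumors while Serpinb6c and Serpinb6e are high in tumor 36 alone.

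The Serpina3 genes, 11 mouse copies that stand where humans have the single antichymotrypsin gene, supplied most clade A RNA, with 196 of 227 RPKM in tumor 18 and 177 of 181 RPKM in tumor 36. Their summed RPKM stayed between 137 in tumor 25 and 218 in tumor 27. What changed was which copies made it up. Serpina3g, Serpina3h and Serpina3i, which lie in a row, took 93.4%, 90.8% and 95.2% of it in tumors 13, 18 and 25, then 80.2% and 84.5% in tumors 27 and 29, and 42.0% in tumor 36. The ratio of Serpina3n to Serpina3g RPKM was 0.0804, 0.0934 and 0.073 in the Osx-Cre;NT3 tumors and 0.488, 0.419 and 1.25 in the FSP1-Cre;NT3 tumors.

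Serpina3g, an inhibitor of lysosomal cathepsins (chr12:104214544-104241934), had 288, 300 and 164 CPM in tumors 13, 18 and 25 and 179, 154 and 114 CPM in tumors 27, 29 and 36. The lines overlapped, and the log2 fold change of -0.75 (SE 0.30) had an adjusted p of 0.458 in edgeR and 0.251 in DESeq2. Serpina3i had between 69.8 and 95.8 CPM in 5 tumors and 28.4 CPM in tumor 36, and Serpina3h, which the annotation lists as a transcribed pseudogene, between 89.3 and 174 CPM in those 5 and 46.2 CPM in tumor 36. Other copies went the other way in tumor 36. Serpina3j had 71.4 CPM there and 1.35 to 11.6 CPM elsewhere, and Serpina3b 27.1 CPM there and 0.0845 to 2.48 CPM elsewhere. Serpina3c, Serpina3f and Serpina3m were also highest in tumor 36, at 4.66, 8.35 and 1.41 CPM.

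**Figure D4:**
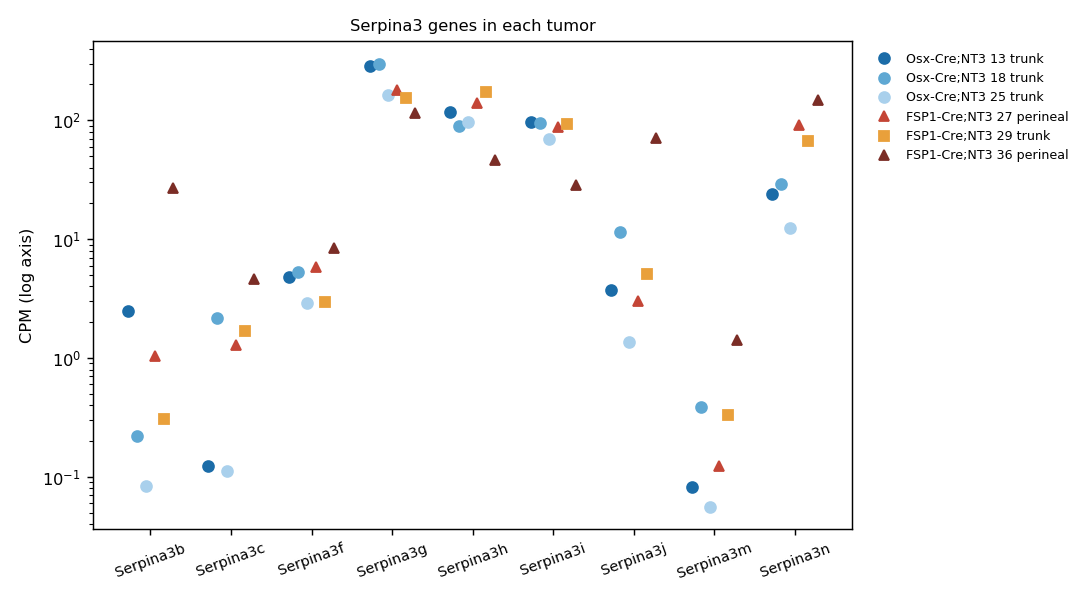
CPM (log axis) of the 9 tested Serpina3 genes in each of the 6 tumors. Tumor 36 (dark triangle) is the lowest point for Serpina3g, Serpina3h and Serpina3i and the highest for the other 6 genes.

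Promoter sequence was compared for the same genes, because the transgene acts through NF-κB, whose sites follow the κB consensus. RefSeq start sites on GRCm38.p6, taken with 250 bases before and 50 after, matched 52 of the members with 61 promoters. On either strand the κB consensus occurred in 8.46% of 32851 promoters. It occurred in 3 of the 61 promoters of members, those of Serpina3g, Serpina3i and Serpinh1, which was not above the share of all promoters. Serpina3n, the copy whose tumors separated the lines, did not hold it. GGGNNTTNC, a shorter form chosen after matches of other forms had been seen, occurred in 15.2% of promoters and in 14 of the 61 promoters of members. These belong to 14 members, 5 of them Serpina3 genes (Serpina3b, Serpina3f, Serpina3g, Serpina3i and Serpina3n). Promoters of Serpina3g, Serpina3i and Serpina3n are shown so that the same stretch can be read in a copy with and without the consensus. Capitals mark the consensus with any GGGNNTTNC overlapping it, and in Serpina3n GGGNNTTNC alone. They start at -85, -154 and -171 from the start site. The windows are on the plus strand at chr12:104235897-104236196, chr12:104262872-104263171 and chr12:104406458-104406757, from RefSeq.
Serpina3g: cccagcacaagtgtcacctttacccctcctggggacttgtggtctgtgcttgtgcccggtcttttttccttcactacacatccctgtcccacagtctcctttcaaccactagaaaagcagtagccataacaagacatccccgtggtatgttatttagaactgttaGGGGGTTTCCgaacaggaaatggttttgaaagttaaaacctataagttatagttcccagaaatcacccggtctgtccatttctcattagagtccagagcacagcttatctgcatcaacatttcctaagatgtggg
Serpina3i: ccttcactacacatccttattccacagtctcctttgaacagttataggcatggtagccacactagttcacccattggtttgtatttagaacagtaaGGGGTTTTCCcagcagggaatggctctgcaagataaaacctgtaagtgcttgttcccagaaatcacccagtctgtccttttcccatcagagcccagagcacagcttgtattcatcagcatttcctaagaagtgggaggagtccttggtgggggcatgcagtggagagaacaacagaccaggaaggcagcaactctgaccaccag
Serpina3n: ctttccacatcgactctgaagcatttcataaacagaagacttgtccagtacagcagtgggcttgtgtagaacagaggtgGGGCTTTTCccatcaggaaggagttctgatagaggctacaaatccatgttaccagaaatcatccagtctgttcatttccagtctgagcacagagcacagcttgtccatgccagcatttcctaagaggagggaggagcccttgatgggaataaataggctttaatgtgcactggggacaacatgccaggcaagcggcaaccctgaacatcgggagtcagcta

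A match in these letters is a description and no evidence of binding. The deposited position of Serpina3g begins at the start of Serpina3f, upstream of the window printed here. TGANTCA, a site of the AP-1 type, occurred in 7.81% of all promoters and in 12 of the 61 promoters of members. These belong to 11 members, namely Serpina1a to Serpina1d and 7 clade B genes of chromosome 1 (Serpinb2, Serpinb5, Serpinb7, Serpinb8, Serpinb10, Serpinb11 and Serpinb12). TGANTCA reads the same on both strands around its free base. TTCNNNGAA, the STAT type, occurred in 8.3% of promoters and in 11 of the 61, which belong to 8 members. GGAANTTCC occurred in 0.928% of promoters and in 1 of the 61, that of Serpinb12.

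Most of the liver-type serpins were low. None of the 6 Serpina1 antitrypsin genes passed 0.312 CPM in any tumor, and only Serpina1b had enough reads to be tested. Serpinc1 (antithrombin) had 0.248 to 0.645 CPM, Serpind1 (heparin cofactor II) 0.166 to 0.676 CPM and Serpinf2 (antiplasmin) 0.169 to 0.745 CPM. Serpina6, the corticosteroid carrier, had at most 0.104 CPM. The 8 hepatocyte markers summed to at most 8.61 CPM in 5 tumors and to 41.5 CPM in tumor 36, and 5 of 8 were at 0 in at least 1 tumor. Serpina10, the inhibitor that acts with protein Z, was higher, at 1.64 to 8.02 CPM. Among the carriers the highest was Serpina7, thyroxine-binding globulin, on the X chromosome, with 52.7 CPM in tumor 18 and 0.125 to 1.61 CPM in the other 5. Its log2 fold change of -5.09 (SE 1.93) between the lines rests on tumor 18, without which it was -0.83.

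Clade B split by chromosome and position. On chromosome 13, Serpinb6b, Serpinb9, Serpinb9b and Serpinb1b lie in a row (chr13:32965513-33094380), and all 4 were highest in tumor 18, where 22.8% of all genes tested were highest. Tumor 18 had 3.99, 4.66, 5.65 and 4.03 times the median CPM of the other 5 tumors for them. Serpinb1b, for instance, had 68.6 CPM in tumor 18 and 7.19 to 28.0 CPM elsewhere. The tested genes that flank the row, with ratios of 0.944 for Serpinb1a before it and 1.67 for Serpinb6d after it, set its ends. The row was marked off by these values, so the 22.8% is no measure of chance for it. As near copies the 4 genes do not count as separate cases, and Serpinb9b had 4 to 196 counts. Of the other tested genes nearby, 1110046J04Rik, Nqo2, Bphl and Psmg4 were also highest in tumor 18, with ratios of 2.51, 1.75, 1.58 and 2.44. In the same tumor 6 of 8 cytotoxic T and NK cell markers were at their highest, with a sum of 139 CPM against 37.7 to 86.0 CPM, none of them at 0, and the part of such cells was not tested.

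**Figure D5:**
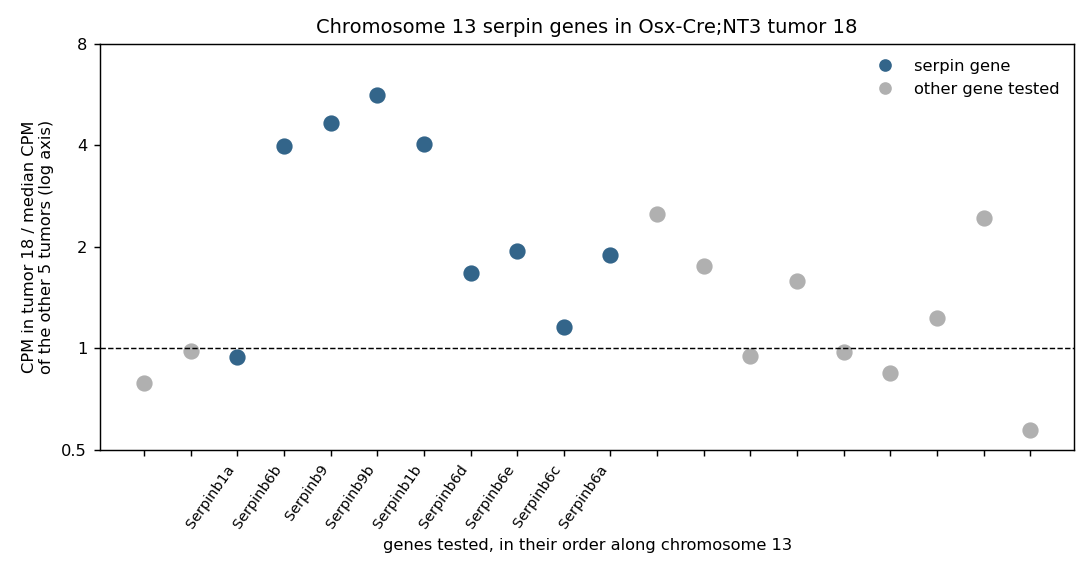
CPM in Osx-Cre;NT3 tumor 18 divided by the median CPM of the other 5 tumors (log axis), for the tested genes around the chromosome 13 serpin cluster in chromosomal order. Serpin genes are blue and other genes grey, and the row from Serpinb6b to Serpinb1b lies between 3.99 and 5.65, above every other gene shown. The row was marked off by these values.

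Serpinb1a and Serpinb6a, the near copies on each side of that row, had another order. Serpinb1a had 147, 111 and 103 CPM in tumors 13, 18 and 25, 91.7 and 117 CPM in tumors 27 and 29, and 301 CPM in tumor 36. Serpinb6a was also highest in tumor 36, at 265 CPM, beside 255 CPM in tumor 18 and 99.3 CPM in tumor 27. The ratio of Serpinb1a to Serpinb1b RPKM was therefore 1.44 in tumor 18, 37.5 in tumor 36 and between 4.70 and 5.50 in the other 4 tumors. That of Serpinb6a to Serpinb6b was 7.58 in tumor 36 and 0.706 to 1.49 in the other 5.

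The chromosome 1 group fell apart as well. Serpinb12, Serpinb3a, Serpinb3b, Serpinb3d and Serpinb7, genes of stratified epithelium that include the counterparts of the human squamous cell carcinoma antigens, had their 3 highest values in tumors 13, 29 and 36, where 2.13% of all genes tested had theirs. In all 8 of the 44 members did, the others being Serpinh1, Serpinb1a and Serpine3. The 3 tumors were picked after these values were seen, so the 2.13% is no measure of chance for them. The Serpinb3 genes are also near copies and do not count as separate cases. Serpinb3a, the most abundant of the 5 genes of chromosome 1, had 16.2, 8.57 and 24.8 CPM in tumors 13, 29 and 36. In tumors 18, 25 and 27 it had 4.53, 0.563 and 1.38 CPM. Serpinb12 had 6.29, 3.92 and 8.0 CPM against 0.572, 0.141 and 0.645 CPM, and Serpinb3b 2.82, 0.975 and 6.47 CPM against 0.143, 0.169 and 0.153 CPM. Neither line nor site draws that division. The 10 suprabasal keratinocyte markers also had their 3 highest sums in tumors 13, 29 and 36, with 876, 740 and 1190 CPM against 436, 568 and 417 CPM. The sums of basal and of stressed or wound keratinocyte markers were highest in tumors 13 and 29. In tumor 36 they were lowest, at 5741 and 1590 CPM. The part of such cells was not tested. Serpinb5 (maspin), next to these serpin genes on the chromosome, varied less and in another order. It had 60.0, 56.3 and 65.6 CPM in tumors 13, 18 and 25 and 29.1, 58.9 and 89.3 CPM in tumors 27, 29 and 36. Serpinb8 stayed between 19.3 and 39.9 CPM. Serpinb11, of the same stretch, had its 3 highest values, 2.81, 0.621 and 0.611 CPM, in tumors 36, 13 and 18.

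Perineal against trunk tumors were compared in the same way, on 2 against 4 tumors. Again 0 of 16415 genes passed in edgeR (percent called 0.0), and the smallest adjusted p was 0.287 over all genes and over the members. At an unadjusted p under 0.05 there were 10 of 44 members, 7 higher and 3 lower at the perineum, against 10.2% of all genes (8.61% higher and 1.63% lower). DESeq2 called 3 of 44, all higher, among them Serpinb2 and Serpina3b, against 3.42% of all genes (3.18% higher and 0.238% lower), and gave no adjusted p for 4 members. The median log2 fold change of perineal over trunk was 0.53 over the members and -0.022 over all genes, with 26 of 44 above 0. The site groups did not overlap for 9 of 44 members (20.5%), a share near the 19.6% of all genes. Of the 9, 6 were higher (13.6%, against 9.98% of all genes) and 3 lower (6.82%, against 9.57%) at the perineum. Serpina3n, Serping1, Serpina9, Serpinb6b and Serpinb10-ps were among the 9 and did not overlap between the lines either.

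Serpinb2, an inhibitor of urokinase (chr1:107511423-107525600), had 2.18 and 13.9 CPM in perineal tumors 27 and 36 and 0.922 to 1.41 CPM in the 4 trunk tumors. The groups did not overlap, but most of the difference was tumor 36. The log2 fold change was 2.78 (SE 0.66), with an adjusted p of 0.287 in edgeR and of 0.00574 in DESeq2, and fell to 0.90 in edgeR without tumor 36. Without tumor 27, so that tumor 36 alone stood for the perineum, edgeR called Serpinb2 and Serpinb6c among 2.47% of all genes, with adjusted p of 0.0129 and 0.0487. That fit takes its spread from the trunk tumors and assumes that tumor 36 varies like them, so it compares 1 tumor with the trunk and not the perineum with the trunk. Serpinb6c had 4.28 CPM and Serpinb6e 3.19 CPM in tumor 36, against at most 0.39 and 0.299 CPM in any other tumor, perineal tumor 27 included. Serpina3b, at 1.04 CPM in tumor 27 and 27.1 CPM in tumor 36, had a log2 fold change of 4.21 (SE 1.5) and an adjusted p of 0.0463 in DESeq2, which rose to 1.00 without tumor 36, where the log2 fold change was 0.45 in edgeR. Without Osx-Cre;NT3 tumor 13 it was 6.08. Tumor 36 also had the highest summed simple epithelium and smooth muscle markers. It had 479 CPM for 7 neutrophil markers against 21.1 to 163 CPM elsewhere, while Camp was at 0 in at least 1 tumor. Their part in these values was not tested.

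Further serpins of clades E, F, H and I are given by their levels. Serpine2, protease nexin 1, had 33.8 to 76.3 CPM, and Serpine3 0.338 to 0.539 CPM. Serpinf1, an inhibitor of angiogenesis that does not block proteases, had 58.9 CPM in tumor 25 and 116 to 177 CPM in the other 5. Serpinh1, which holds procollagen in the endoplasmic reticulum, had 156 CPM in tumor 25 and 234 to 277 CPM in the other 5. Serpini1, neuroserpin, had 0.535 to 2.78 CPM. Of these 5 genes none had an unadjusted p under 0.05 in either comparison in edgeR.

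Proteases and partners of the serpins were read from the same fits. In edgeR 0 genes of the 7 lists passed adjustment in either comparison. Between the lines, where DESeq2 called 2.14% of all genes as higher and 0.414% as lower, it called 5 of 14 collagen folding partners of Serpinh1 as higher in FSP1-Cre;NT3 (Col1a1, Col1a2, Col3a1, Col5a1 and P3h1), with Col1a1 at 1312, 886 and 1529 CPM against 2663, 4002 and 2394 CPM, while Serpinh1 itself was not called. Of these partners Col1a1, Col1a2 and Col3a1 were on the fibroblast list too. DESeq2 called 4 of 9 leukocyte serine proteases as higher, Cma1, Mcpt4, Tpsab1 and Tpsb2, which are mast cell chymases and tryptases and were on the mast cell list too. Mcpt4 had 20.4, 17.7 and 1.86 CPM against 91.6, 66.8 and 83.9 CPM. Among 11 genes of plasminogen activation it called Thbd, the thrombin receptor thrombomodulin, as higher, with 9.40, 7.65 and 8.56 CPM against 23.2, 17.2 and 45.7 CPM. Among 10 cysteine proteases it called Ctsz as lower, and it called 0 of 6 complement and contact proteases, 0 of 14 epidermal serine proteases and 0 of 17 other protease inhibitors. At an unadjusted p under 0.05 edgeR counted 6, 4, 3, 2, 3, 4 and 1 genes of these lists in that order, in either direction, against 10.8% of all genes. Between the sites, where DESeq2 called 3.18% of all genes as higher, it called Thbd and F2r, the thrombin receptor, along with 1 epidermal serine protease (Klk6) and 2 other inhibitors (Slpi and Stfa2), all higher at the perineum. Plau, urokinase, a target of Serpinb2, had 63.8 and 52.0 CPM in the perineal and 72.7 to 109 CPM in the trunk tumors, with an adjusted p of 0.274 in DESeq2.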

How the data were processed

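Polyadenylated RNA of 6 tumors was sequenced with an mRNA library kit. The authors deposited, for each tumor and gene, read counts without normalization and RPKM values, on mm10. The study's methods name HISAT2 and featureCounts, and the submitters' processing notes TopHat2 2.0.6 and HTSeq, and which made the table is not given in the sources used here, nor are the annotation and strand setting. Every count is even. Deposited totals ran from 51824408 to 163297772 counts, so that 3 counts equal 0.0184 to 0.0579 CPM before scaling. Such limits cover counting error only, and would be higher if both ends of a pair were counted.

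Genes were filtered with filterByExpr and compared between the 2 lines (3 against 3) and sites (2 against 4) by edgeR 4.0.16 (TMM, quasi-likelihood test, Benjamini-Hochberg over 16415 genes, threshold 0.05) in R 4.3.3, after a test on simulated counts. DESeq2 1.42.0, other scalings, filters and covariates, halved counts and fits without each tumor were alternatives. SE are the log2 fold change over the root of the F statistic. Deposited symbols were compared with GENCODE M21, and 46 of the 63 members had both ends within 1000 bases. Serpina16 and Serpinb9h stand in the table under other names and are not included. The members and gene lists were chosen with earlier results of these data known. Named members are those with a mean of at least 5 RPKM, the 2 highest of each clade, the 5 of smallest p in each comparison and the 5 of widest range with a mean of at least 1 CPM. Not every named member is reported here. Other members named (Serpina1b, Serpina3c, Serpina3f, Serpina3m, Serpina6, Serpina10, Serpinb3a, Serpinb3d, Serpinb6d, Serpinb7, Serpinb9b, Serpinb11, Serpine3 and those at 0) were chosen after their values were seen, as neighbours or copies of these. Other forms of the κB site were searched in the promoters before the forms given, which were settled after those matches had been seen. The 7 lists of proteases and partners and the marker lists are textbook genes.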

Additional observations from a re-analysis of the deposited data

Results flagged for a closer look

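Of 34 results examined (the 31 named genes and the sums of clades A, B and E), 6 had a single tumor far from the other 5. The gap to the nearest of them, as a share of the whole range, was above Dixon's 95% critical value. Chance gives about 1 in 20 where results are taken without regard to their values. That rate does not hold here, because some genes were named for a small p or a wide range. Serpinb2, Serpinb6c and Serpinb6e were named only for a small p between the sites. Tumor 36 was that tumor for 4 of the 6. In log2 CPM, Serpinb2 reached 3.80 in tumor 36 with 1.14 next, Serpinb6c 2.11, Serpinb6e 1.68, and Serpina3i was lowest there at 4.83. Serpinh1 was lowest in tumor 25 at 7.29, with 7.87 next. Serpind1 was highest in tumor 18 at -0.51, with -1.73 next.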

How the results depend on the processing

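The groups held 3 against 3 and 2 against 4 tumors, and whether the number of tumors or the depth limits the calls was not tested. In edgeR the counts of genes and of serpin genes called between the lines stayed at 0 with library sizes alone, upper-quartile scaling, other filters, halved counts, site as a covariate, trunk tumors alone and without each tumor (range 0 to 0). DESeq2 called 420 genes and 4 serpin genes, and without each tumor in turn, a fit chosen after seeing the data, 196 to 3650 genes and 2 to 10 serpin genes, the most without tumor 25 and the fewest genes without tumor 36. Between the sites edgeR called 0 genes under the same alternatives but 2 without tumor 25 and 415 without tumor 27, a fit with 1 perineal tumor (range 0 to 415, and 0 to 2 serpin genes). DESeq2 called 561 and 3, and without each tumor 14 to 1330 genes and 0 to 9 serpin genes, the fewest without tumor 36 and the most without tumor 27. Without tumor 29 both comparisons hold the same tumors. The log2 fold changes given kept their direction, except that between the sites Serpina3j turned to -0.86 (DESeq2 -0.88) and Serpinb6e to -0.052 (DESeq2 -0.074) without tumor 36. Over the fits without 1 tumor Serpina3j ranged from -0.88 to 3.72 and Serpinb6e from -0.074 to 4.33. The log2 fold change of Serpina7 between the lines ranged from -5.96 to -0.83, the last without tumor 18. The clade B share stayed between 38.4% and 42.9% over its alternatives. No paired analysis was possible because the groups share no tumor number.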
